A study of Mus musculus with 12 samples.

Results

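The fatty acid elongases and desaturases of brown adipose tissue (BAT) were followed as 10 genes, found by their symbols among the 25124 genes of the deposited TPM table (a transcript level corrected for the length of the transcript and the size of the library). All 10 were found. They are the elongases *Elovl1*, *Elovl3*, *Elovl4*, *Elovl5* and *Elovl6*, the polyunsaturated fatty acid desaturase family *Fads1*, *Fads2* and *Fads3*, and the stearoyl-CoA desaturases *Scd1* and *Scd2*. RNA-seq was made from interscapular BAT of male mice at 10 weeks of age on a C57B/6J background, either wild type (WT) or lacking *Txnip* in the whole body (*Txnip*-/-), so that every tissue of the knockout mice lacked the gene and not brown adipocytes alone. The mice were kept for 1 week at 23 °C (room temperature, RT) or at 30 °C (thermoneutrality, TN), and 3 libraries were made for each genotype at each temperature, 12 in all, each taken as a mouse of its own. If they were not separate mice, the p-values measure only the spread between libraries. *Txnip* encodes thioredoxin-interacting protein, which binds thioredoxin and restrains glucose uptake.

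Elongases sit in the endoplasmic reticulum and join malonyl-CoA to an acyl-CoA, the rate-limiting step of a cycle that a ketoacyl-CoA reductase, a dehydratase and an enoyl-CoA reductase complete. Desaturases place a double bond in the chain with electrons passed on by cytochrome b5 and its reductase. In brown fat the lipids made this way are stored in droplets and built into membranes, and *Elovl3* is known there as a gene induced by cold.

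The 250 bases before the annotated start of *Elovl5* and *Elovl6*, the elongases with the higher levels in *Txnip*-/- BAT, and of *Fads3*, the *Fads* gene with the largest rise at TN, are shown from RefSeq on GRCm38.p6, the assembly behind mm10, each on the plus strand, 5′ to 3′. Promoters were available for 6 of the 10 genes but not for *Elovl3*, *Fads1*, *Scd1* and *Scd2*. Those of *Elovl1*, *Elovl4* and *Fads2* are not shown. The capitals mark matches, on either strand, to CACGTG (an E-box), CCAAT (the CCAAT box), GGGCGG (a GC box), AGGTCA (a nuclear receptor half-site) or TCACNCCAC (a sterol regulatory element).
Elovl5, chr9:77917115-77917364: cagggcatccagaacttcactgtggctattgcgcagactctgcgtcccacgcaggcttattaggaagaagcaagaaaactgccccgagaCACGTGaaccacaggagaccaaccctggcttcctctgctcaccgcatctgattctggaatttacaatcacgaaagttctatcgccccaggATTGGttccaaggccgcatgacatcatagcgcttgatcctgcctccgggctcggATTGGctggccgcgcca
Elovl6, chr3:129532136-129532385: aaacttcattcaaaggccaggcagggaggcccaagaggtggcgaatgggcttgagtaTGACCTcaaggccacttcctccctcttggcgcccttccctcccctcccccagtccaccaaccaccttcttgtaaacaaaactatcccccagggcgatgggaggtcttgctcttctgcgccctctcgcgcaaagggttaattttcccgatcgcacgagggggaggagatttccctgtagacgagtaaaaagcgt
Fads3, chr19:10041298-10041547: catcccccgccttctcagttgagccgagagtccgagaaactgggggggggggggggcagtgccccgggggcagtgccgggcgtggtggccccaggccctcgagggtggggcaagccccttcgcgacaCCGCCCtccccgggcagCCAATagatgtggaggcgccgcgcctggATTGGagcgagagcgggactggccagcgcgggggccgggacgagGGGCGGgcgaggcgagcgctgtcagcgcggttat
The *Elovl5* window held 1 E-box and 2 CCAAT boxes. *Fads3* had 2 CCAAT boxes and 2 GC boxes, and *Elovl6* had 1 nuclear receptor half-site. Of 32851 promoter windows of this length, 6.02% held an E-box, 33.8% a CCAAT box, 32.7% a GC box, 14.0% the half-site and 1.05% the sterol element, which none of the 3 windows contained. These matches describe letters and not bound factors.

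The libraries held between 29.9 M and 47.4 M reads (M for mega). *Txnip* itself lay between 564 and 694 TPM in WT and between 24.8 and 35.4 TPM in *Txnip*-/- at RT, and between 1072 and 1238 TPM in WT and between 10.5 and 14.4 TPM in *Txnip*-/- at TN. It shares 606 exon bases with *Gm15441* on the opposite strand. The brown adipocyte markers, among them *Ucp1*, *Cidea* and *Cox8b*, were all present, and 9 of them summed to between 13202 and 13688 TPM in WT and 10147 and 12495 TPM in *Txnip*-/- at RT, and between 8227 and 9517 TPM in WT and 5391 and 6010.1 TPM in *Txnip*-/- at TN. The median log2 fold change of all tested genes from RT to TN was 0.18 in WT and 0.15 in *Txnip*-/-, so that temperature differences are best read against these shifts. Centring each library on its median lowered the share of called genes that were higher at TN from 83.1% to 51.1% in WT and from 78.9% to 48.5% in *Txnip*-/-, where upper-quartile normalization gave 69.2%.

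*Scd1*, which makes oleic and palmitoleic acid from saturated chains, dominated the family. Its level ran from 6376 to 20906 TPM, it was the most abundant or next most abundant gene in all 12 libraries and the most abundant in 6, and it held between 1.15% and 3.67% of the TPM of all listed genes. *Elovl6*, which lengthens palmitic acid and other saturated chains, came next in every group by mean level, at 221 ± 73.5 TPM in RT WT (SD, n = 3 in this and the following means), where *Scd1* was 67.1-fold more abundant. *Elovl5*, an elongase of polyunsaturated chains, and *Scd2*, the second desaturase of the *Scd1* type in adipose tissue and brain, followed at 69.7 ± 1.77 and 40.6 ± 24.1 TPM.

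In RT WT *Elovl3* averaged 26.4 ± 7.80 TPM, *Elovl1*, which makes very long saturated and monounsaturated chains for sphingolipids, 8.43 ± 0.922 TPM, *Fads3* 8.02 ± 2.56 TPM, *Fads1* 6.22 ± 0.585 TPM and *Fads2* 4.86 ± 0.399 TPM. Neighbours in this order whose libraries overlapped in RT WT were *Scd2* and *Elovl3*, *Elovl1* and *Fads3*, and *Fads3* and *Fads1*. *Elovl4*, the elongase of ultra-long chains in retina, skin and brain, stayed between 0.166 and 0.687 TPM, below the minimum mean of 1 TPM, and was not tested. So 9 of the 10 genes entered each comparison. The remaining relatives in the table, *Elovl2*, *Elovl7*, *Scd3*, *Scd4* and *Fads6*, together summed to at most 3.13 TPM in any library.

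The place of *Elovl3* in this order differed between groups. By mean level it stood 5th of the 10 genes in RT WT, 6th in RT *Txnip*-/- and 9th in both groups at TN. Its libraries overlapped with those of *Fads3* and *Elovl1* in RT *Txnip*-/- and with those of *Elovl4* in TN *Txnip*-/-. Of the 10 genes 6 lie on chromosome 19 of mm10, *Fads3*, *Fads2* and *Fads1* beside each other with gaps of 3.09 kb and 81.4 kb, and *Scd2* 87.6 kb from *Scd1*. Near-identical stretches of the *Scd* paralogs can share reads, so the split between *Scd1* and *Scd2* is uncertain. *Elovl1* shares 53 exon bases with *Cdc20*, *Elovl3* 10 with *Pitx3* and *Elovl6* 34 with *Gm35986*, all on the opposite strand, and *Scd2* shares 61 on its own strand with *Mir5114*.

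**Figure D1:**
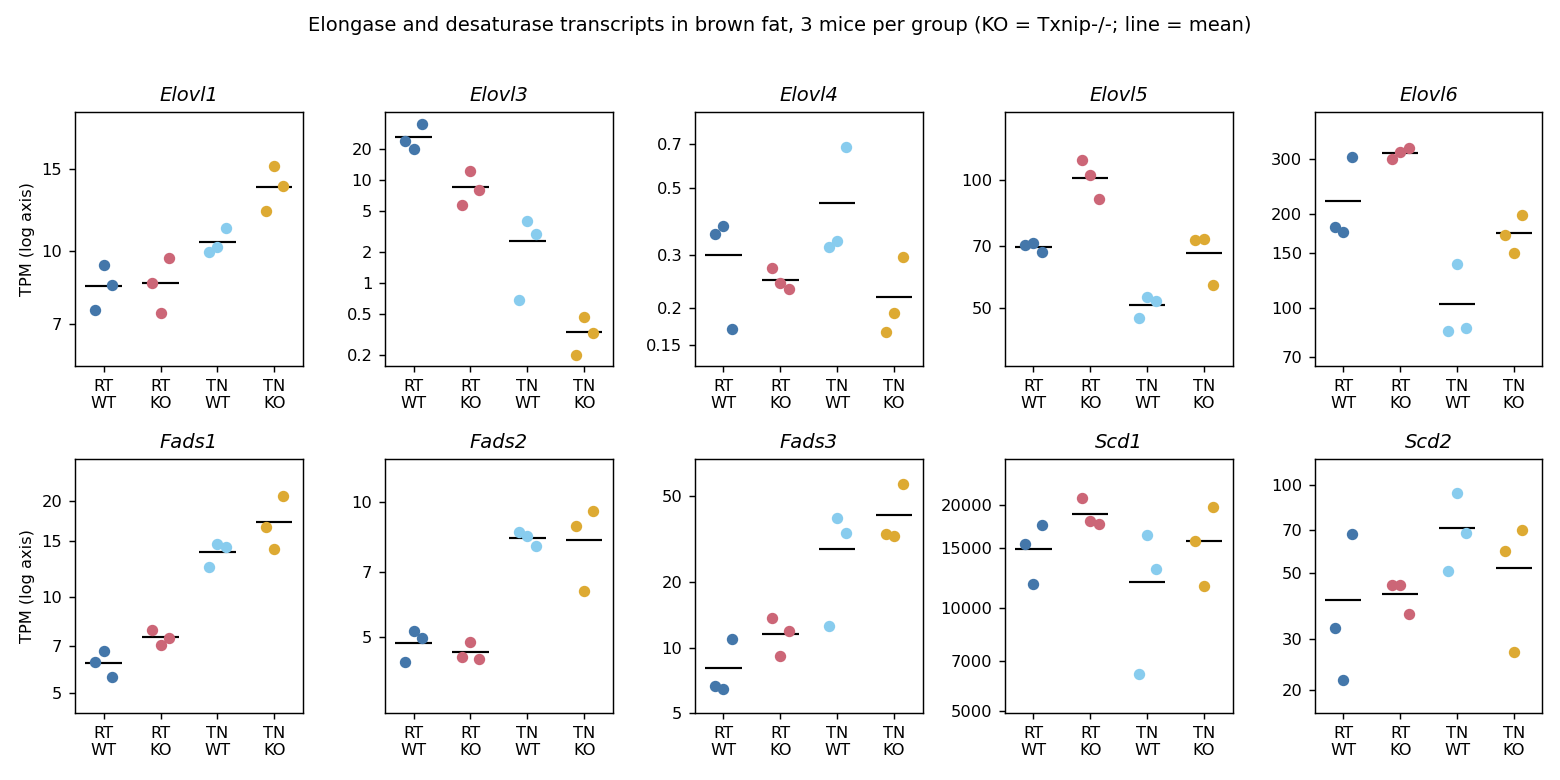
TPM of the 10 genes on log axes that differ between panels, each point 1 library and each line the mean of 3. *Elovl3* falls from between 20.2 and 35.1 TPM in RT WT to between 0.202 and 0.469 TPM in TN *Txnip*-/- (KO), while *Scd1* stays between 6376 and 20906 TPM.

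To ask how the loss of *Txnip* bears on these genes, *Txnip*-/- was compared with WT at each temperature. *Elovl3* was lower in *Txnip*-/- BAT, and *Elovl5* and *Elovl6* were higher. At RT, 2 of the 9 tested genes, *Elovl3* and *Elovl5*, passed the test, which asked for a fold change below 0.8 or above its inverse and a limma adjusted p under 0.05, where 1.49% of all tested genes did. At TN, 1 of the 9, *Elovl6*, passed, against 8.66% of all tested genes. Differences are given as log2 fold changes of TPM + 1, which understate the change of low genes, and adjusted p-values are from limma over all genes tested.

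*Elovl3* makes very long saturated and monounsaturated chains in brown fat, skin and liver. It was at 23.8, 20.2 and 35.1 TPM in the RT WT libraries and at 5.74, 12.2 and 7.99 TPM in those of RT *Txnip*-/-. At TN the values were 0.691, 3.97 and 2.97 TPM in WT and 0.202, 0.469 and 0.330 TPM in *Txnip*-/-. At both temperatures the *Txnip*-/- libraries were all below the WT ones, and the first TN WT library stood close to the *Txnip*-/- libraries.

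The mean of *Elovl3* in *Txnip*-/- was 0.328 times that in WT at RT and 0.131 times at TN. On the log2 scale the difference was −1.52 at RT (SE 0.27, adjusted p = 0.0488) and −1.28 at TN (SE 0.36, adjusted p = 0.0643). The call at RT was narrow, since it was kept when 1 of 6 libraries was left out (RT *Txnip*-/- replicate 2) and lost without any 1 of the others, with adjusted p = 0.122, 0.127 and 0.0823 without RT WT replicates 1, 2 and 3, and 0.116 and 0.170 without RT *Txnip*-/- replicates 1 and 3. At TN *Elovl3* averaged 2.54 TPM in WT and 0.334 TPM in *Txnip*-/-, so it met the minimum mean of 1 TPM only through WT. Its test at TN thus rests on a filter passed by the group where it is high. Without TN WT replicate 1 the log2 fold change at TN was −1.74 (limma adjusted p = 0.00475), under the same limit.

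*Elovl5* was at 70.4, 71.1 and 67.7 TPM in RT WT and at 111, 103 and 90.1 TPM in RT *Txnip*-/-. At TN it was at 47.2, 53.1 and 51.9 TPM in WT and at 72.4, 72.7 and 56.5 TPM in *Txnip*-/-. The groups did not overlap at either temperature, and the *Txnip*-/- libraries of each temperature spread more widely than those of WT. The log2 fold change was 0.53 at RT (SE 0.08, adjusted p = 0.0326) and 0.39 at TN (SE 0.11, adjusted p = 0.0604). The call at RT was kept without RT *Txnip*-/- replicate 3 and lost with any other library left out, with adjusted p = 0.0982, 0.133 and 0.0681 without RT WT replicates 1, 2 and 3, and 0.0728 and 0.0935 without RT *Txnip*-/- replicates 1 and 2, while at TN the gene passed without TN *Txnip*-/- replicate 3 (adjusted p = 0.0161).

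*Elovl6* was at 182, 175 and 306 TPM in RT WT and at 300.0, 316 and 326 TPM in RT *Txnip*-/-. At TN it was at 84.7, 138 and 86.1 TPM in WT and at 171, 150.5 and 199 TPM in *Txnip*-/-. The groups stood apart at TN, whereas at RT the third WT library reached the level of the *Txnip*-/- libraries. The log2 fold change was 0.78 at TN (SE 0.19, adjusted p = 0.0432) and 0.55 at RT (SE 0.20, adjusted p = 0.233). Without RT WT replicate 3 the difference at RT became 0.81 (adjusted p = 0.00534). The call at TN was kept without TN WT replicate 2 and lost with any other library left out, with adjusted p = 0.111 and 0.128 without TN WT replicates 1 and 3, and 0.117, 0.0727 and 0.102 without TN *Txnip*-/- replicates 1, 2 and 3.

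Because the differences of these elongases had the same sign at both temperatures, the mean of the genotype effects at RT and TN was also tested on all 12 libraries, a comparison added after the values at each temperature had been seen and made from the same libraries. Here 3 of the 9 tested genes passed, against 7.84% of all tested genes. *Elovl3* was lower in *Txnip*-/- by a log2 fold change of −1.40 (95% confidence interval −1.95 to −0.85, adjusted p = 0.00355), *Elovl5* higher by 0.46 (0.30 to 0.62, adjusted p = 0.00154) and *Elovl6* higher by 0.66 (0.33 to 1.00, adjusted p = 0.0139). Each of the 3 calls was kept when any 1 of the 12 libraries was left out and when each library was centred on its median.

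**Figure D2:**
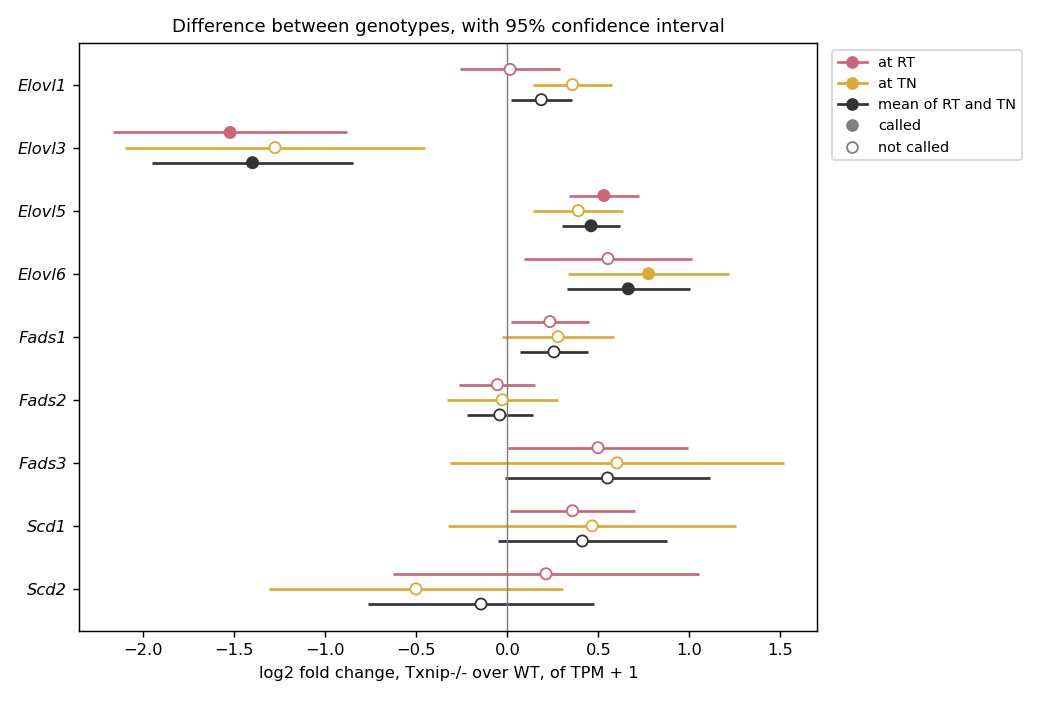
Log2 fold change of TPM + 1 in *Txnip*-/- over WT (x axis) for the 9 tested genes, with 95% confidence intervals, at RT, at TN and as the mean of both; filled points passed the thresholds. *Elovl3* lies at −1.52, −1.28 and −1.40 and the intervals of *Elovl5* and *Elovl6* lie above 0 in all 3.

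No other elongase or desaturase passed between genotypes. *Elovl1* was at 9.97, 10.2 and 11.2 TPM in TN WT and at 12.2, 15.3 and 13.8 TPM in TN *Txnip*-/-, groups that did not overlap, but its log2 fold change of 0.36 had an adjusted p of 0.0523, and at RT it was 0.02 (95% confidence interval −0.26 to 0.29). *Fads1*, which makes arachidonic and eicosapentaenoic acid, averaged 6.22 TPM in RT WT and 7.48 TPM in RT *Txnip*-/-, with a mean effect over both temperatures of 0.26 (0.07 to 0.44, adjusted p = 0.0688). *Fads2*, the rate-limiting desaturase of the same path, differed least, with a mean effect of −0.04 (−0.22 to 0.14).

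*Fads3*, which acts on sphingoid bases, had a mean genotype effect of 0.55 (−0.01 to 1.11, adjusted p = 0.199), which was 0.31 without TN WT replicate 1 (adjusted p = 0.327). For *Scd1* every RT *Txnip*-/- library, at 20906, 17892 and 17619 TPM, lay above the RT WT libraries at 15353, 11705 and 17425 TPM, yet the highest WT and the lowest *Txnip*-/- library nearly touched and the log2 fold change of 0.36 did not pass (adjusted p = 0.292) and was 0.20 without RT WT replicate 2. At TN *Scd1* was at 6376, 16369 and 12966 TPM in WT and at 15629.5, 11550.5 and 19738 TPM in *Txnip*-/-, with overlap. Its difference at TN, 0.47, became 0.068 without TN WT replicate 1. *Scd2* had a difference of 0.21 at RT and −0.50 at TN (adjusted p = 0.825 and 0.426), and the value at TN ran from −0.77 without TN *Txnip*-/- replicate 3 to −0.091 without TN *Txnip*-/- replicate 2.

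Groups that did not overlap were seen for 4 of the 9 genes at RT, namely *Elovl3*, *Elovl5*, *Fads1* and *Scd1*, where 22.6% of all tested genes had such groups, and for 4 of the 9 at TN, *Elovl1*, *Elovl3*, *Elovl5* and *Elovl6*, against 31.1%. The median log2 fold change of the 9 genes was 0.23 at RT and 0.36 at TN, beside 0.03 and 0.01 over all tested genes.

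Markers of other cells moved with genotype too. At RT, 5 of 5 skeletal muscle markers were called higher in *Txnip*-/-, where 0.76% of all tested genes were, their sum running from 2.30 to 2.83 TPM in RT WT and from 17.8 to 42.4 TPM in RT *Txnip*-/-. *Acta1*, *Ckm*, *Myh4* and *Tnnt3* lay below 1 TPM in every RT WT library and were tested only through their RT *Txnip*-/- level. The count was thus partly set by the filter and cannot be weighed against that share. At TN 2 of the 5 were tested and 0 were called. Of the macrophage markers 3 of 7 tested were called higher at RT and 8 of 8 at TN, where 6.49% of all tested genes were, and their summed level ran from 50.4 to 55.1 TPM in WT and 85.6 to 151 TPM in *Txnip*-/- at RT, and from 115 to 208 TPM in WT and 338 to 463 TPM in *Txnip*-/- at TN. At TN, 4 of 4 fibroblast markers were higher in *Txnip*-/-, their sum running from 211 to 283 TPM in WT and from 438 to 453 TPM in *Txnip*-/-, and 5 of 9 brown adipocyte markers were lower, as was 1 at RT, where 2.17% of all tested genes were called lower at TN and 0.726% at RT. Lymphocyte and endothelial markers had no call between genotypes, 2 of 4 tested white adipocyte markers were higher in *Txnip*-/- at TN, and 1 of 5 Schwann cell markers was lower at each temperature. None of these marker genes was at 0 in all libraries of a group, and their part in the differences of the elongases was not tested. In bulk tissue, fewer cells of a type and less RNA per cell cannot be told apart.

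Housing temperature divided the family. From RT to TN, *Elovl3*, *Elovl5* and *Elovl6* fell and *Fads1*, *Fads2* and *Fads3* rose in both genotypes, which is 6 of the 9 tested genes called in WT, where 37.8% of all tested genes were. In *Txnip*-/- the same 6 genes and *Elovl1* were called, 7 of the 9, where 39.2% of all tested genes were. Each of these calls was kept with any 1 library left out and with each library centred on its median. These comparisons use the same libraries as the comparisons of genotype.

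*Elovl3* fell by 3.05 on the log2 scale in WT (SE 0.36, adjusted p = 0.000128) and by 2.80 in *Txnip*-/- (SE 0.36, adjusted p = 9.43e-05). Its mean at TN was 0.0965 times that at RT in WT and 0.0386 times in *Txnip*-/-. *Elovl6* fell by 1.08 in WT (SE 0.22, adjusted p = 0.00206) and by 0.86 in *Txnip*-/- (SE 0.22, adjusted p = 0.00653), and *Elovl5* fell by 0.45 (SE 0.10, adjusted p = 0.00374) and 0.59 (SE 0.10, adjusted p = 0.000608). For all 3 elongases the RT and TN libraries of a genotype did not overlap.

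*Fads1* went from 6.27, 6.78 and 5.61 TPM in RT WT to 12.47, 14.7 and 14.4 TPM in TN WT, and from 7.88, 7.09 and 7.46 TPM in RT *Txnip*-/- to 16.6, 14.1 and 20.8 TPM in TN *Txnip*-/-. Its libraries were tight within RT and stood clear of those at TN, and its log2 fold change was 1.04 in WT (SE 0.12, adjusted p = 0.000119) and 1.08 in *Txnip*-/- (SE 0.12, adjusted p = 4.22e-05). *Fads2* went from 4.41, 5.18 and 4.99 TPM to 8.55, 8.40 and 7.98 TPM in WT and from 4.53, 4.88 and 4.48 TPM to 8.83, 6.34 and 9.56 TPM in *Txnip*-/-, a log2 fold change of 0.67 in WT (SE 0.12, adjusted p = 0.000975) and 0.70 in *Txnip*-/- (SE 0.12, adjusted p = 0.000548).

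*Fads3* had the largest rise of the 3 *Fads* genes. It was at 6.63, 6.46 and 10.98 TPM in RT WT and at 12.6, 39.4 and 33.9 TPM in TN WT, where the first library stood far below the other two. In *Txnip*-/- it was at 13.7, 9.17 and 11.9 TPM at RT and at 33.4, 32.8 and 56.9 TPM at TN. The log2 fold change was 1.60 in WT (SE 0.37, adjusted p = 0.00394), which became 2.09 without TN WT replicate 1, and 1.71 in *Txnip*-/- (SE 0.37, adjusted p = 0.00241).

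*Elovl1* rose in *Txnip*-/- by 0.63 (SE 0.11, adjusted p = 0.000653). In WT its difference of 0.29 had an adjusted p of 0.0464 but a fold of 1.22, below the fold threshold, and it passed both thresholds without RT WT replicate 2 (0.35, adjusted p = 0.0338). *Scd1* and *Scd2* did not pass in either genotype. The difference of *Scd1* was −0.40 in WT (95% confidence interval −1.06 to 0.25) and −0.30 in *Txnip*-/- (−0.95 to 0.36), intervals that hold both falls and rises. The value in WT became −0.0061 without TN WT replicate 1 and −0.69 without TN WT replicate 2, and that in *Txnip*-/- −0.094 without TN *Txnip*-/- replicate 2 and −0.48 without TN *Txnip*-/- replicate 3. *Scd2* differed by 0.90 in WT (adjusted p = 0.0815), and without RT WT replicate 3 it passed, at 1.34 (adjusted p = 0.0135), whereas without RT WT replicate 2 it was 0.54 (adjusted p = 0.292).

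The RT and TN libraries did not overlap for 7 of the 9 genes in WT, *Elovl1* and the 6 called ones, against 57.5% of all tested genes, and for 7 of the 9 in *Txnip*-/-, against 61.1%. The median log2 fold change of the 9 genes from RT to TN was 0.29 in WT and 0.19 in *Txnip*-/-, beside 0.18 and 0.15 over all tested genes. Of all tested genes 31.4% were called higher at TN in WT and 30.9% in *Txnip*-/-, and 6.39% and 8.27% were called lower. Macrophage markers rose as well, with 7 of 8 called in WT and 8 of 8 in *Txnip*-/-, as did 4 of 4 fibroblast markers in both genotypes, while 4 of 9 brown adipocyte markers fell in WT and 7 of 9 in *Txnip*-/-. Of the white adipocyte markers 2 of 4 tested rose in each genotype, *Lep*, the leptin gene, by 3.71 in WT and 3.56 in *Txnip*-/- and *Nnat* by 1.28 and 2.30, and the summed list ran from 21.6 to 52.5 TPM in WT and 42.1 to 67.6 TPM in *Txnip*-/- at RT, and from 95.1 to 116 TPM and 112 to 181 TPM at TN. Endothelial markers were called higher for 3 of 4 genes in WT and 4 of 4 in *Txnip*-/-, and 5 of 5 skeletal muscle markers lower in *Txnip*-/-. Of the muscle markers, *Ckm*, *Myh4* and *Tnnt3* met the minimum mean only through their RT *Txnip*-/- level, so this count was partly set by the filter. The part of all these markers in the rise of the *Fads* genes or the fall of the elongases was not tested.

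**Figure D3:**
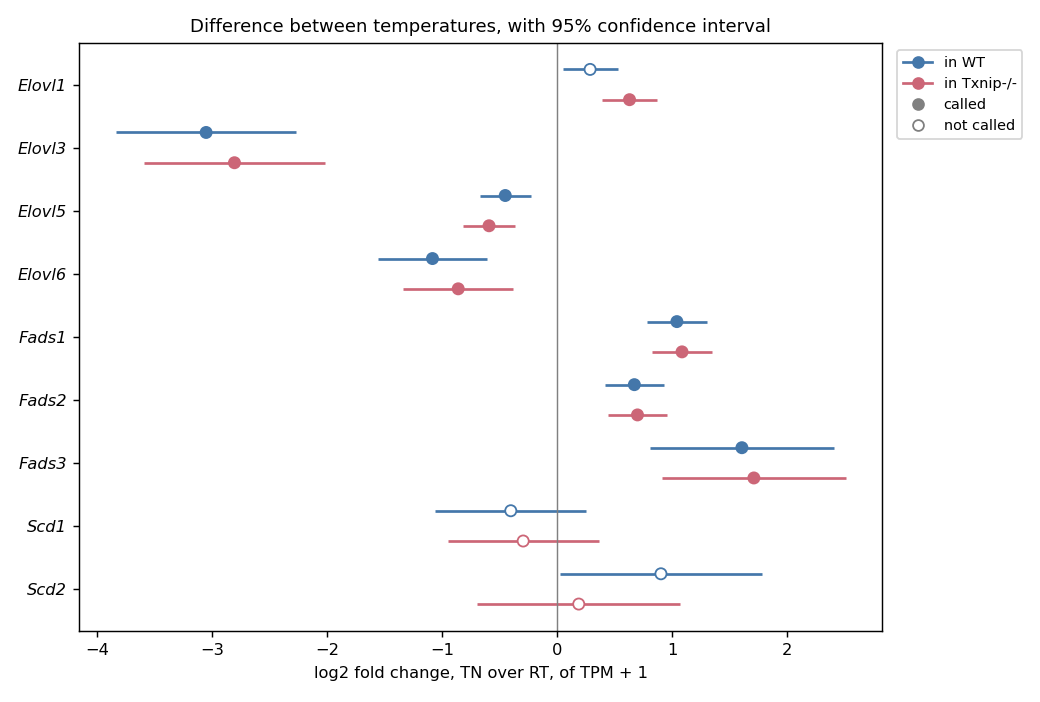
Log2 fold change of TPM + 1 at TN over RT (x axis) for the 9 tested genes in WT and in *Txnip*-/-, with 95% confidence intervals; filled points passed the thresholds. *Elovl3* lies at −3.05 and −2.80, *Elovl5* and *Elovl6* lie below 0, and the 3 *Fads* genes lie between 0.67 and 1.71.

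Whether the genotype effect itself differed between temperatures was tested as an interaction on all 12 libraries. None of the 9 genes passed in limma, and of all tested genes 0.00801% did, which is *Txnip* alone. An unadjusted p under 0.05 was reached by 1571 of the 12486 tested genes and by 1 of the 9, *Elovl1*, with an interaction of 0.34 on the log2 scale (95% confidence interval 0.01 to 0.68, adjusted p = 0.389). For *Elovl3* the interval ran from −0.86 to 1.35 and for *Elovl6* from −0.45 to 0.90, so that 3 libraries a group could not tell equal from unequal effects at RT and TN. The sign of the *Elovl3* interaction, 0.25, turned to −0.73 with log2(TPM + 0.1) in place of log2(TPM + 1).

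Shares within each family show the balance of transcripts, not of enzymes, independently of their total. *Elovl3* made up 8.37%, 7.32% and 8.42% of the summed TPM of the 5 elongases in the RT WT libraries. Its share was 1.35%, 2.78% and 1.84% in RT *Txnip*-/-. At TN it was 0.483%, 1.93% and 1.94% in WT and 0.0789%, 0.196% and 0.122% in *Txnip*-/-. No 2 groups that differ only in genotype or only in temperature overlapped. The share was lower in *Txnip*-/- by a mean difference of −3.68 percentage points over both temperatures and lower at TN than at RT by −4.22 points over both genotypes (exact permutation test within strata, two-sided, p = 0.005 each, the smallest that 400 relabellings allow, and 0.015 after Benjamini-Hochberg adjustment over 6 share tests).

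The summed elongase TPM went the other way between genotypes. At RT it ran from 276 to 417 TPM in WT and from 426 to 439 TPM in *Txnip*-/-. At TN it ran from 143 to 206 TPM in WT and from 239 to 270.3 TPM in *Txnip*-/-. *Elovl6* held most of it, with mean shares between 60.9% in TN WT and 72.5% in RT *Txnip*-/-, and *Elovl5* held between 22.2% and 30.9%.

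*Fads3* held 41.4 ± 8.34% of the summed *Fads* TPM in WT and 48.6 ± 4.66% in *Txnip*-/- at RT, and 53.6 ± 14.0% in WT and 61.2 ± 4.21% in *Txnip*-/- at TN. The difference between TN and RT was 12.4 percentage points (exact permutation test, two-sided, p = 0.04, adjusted p = 0.054) and that between genotypes 7.35 points (p = 0.145, adjusted p = 0.145, exact permutation test). Neither passed after adjustment. With 1 library left out, the unadjusted p for TN against RT was at or above 0.05 in 6 of 12 cases, with 11.6 and 10.8 points without RT WT replicates 1 and 2, 11.1 without RT *Txnip*-/- replicate 2, 10.03 and 10.7 without TN WT replicates 2 and 3, and 11.4 without TN *Txnip*-/- replicate 3.

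*Scd1* held between 99.2% and 99.8% of the summed *Scd1* and *Scd2* TPM in every library. Its share was lower at TN by −0.23 percentage points (exact permutation test, two-sided, p = 0.01, adjusted p = 0.02). Between genotypes it differed by 0.17 points (p = 0.045, adjusted p = 0.054, exact permutation test), which did not pass after adjustment, and the unadjusted p was at or above 0.05 without RT WT replicate 3 (a difference of 0.14 points), RT *Txnip*-/- replicate 3 (0.17 points), TN WT replicate 1 (0.13 points) or any TN *Txnip*-/- replicate (0.15 to 0.19 points). Within 1 temperature or genotype, 3 libraries against 3 cannot give p below 0.1.

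**Figure D4:**
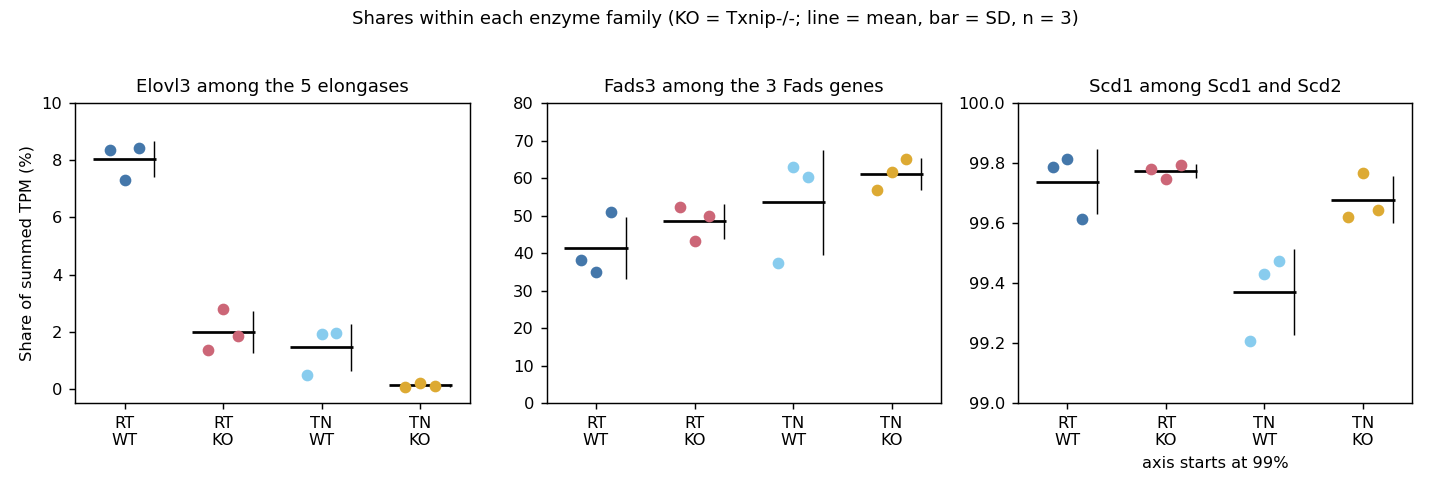
Share (%) of *Elovl3* among the 5 elongases, of *Fads3* among the 3 *Fads* genes and of *Scd1* among *Scd1* and *Scd2*, each point 1 library, lines means and bars SD of 3. The *Elovl3* share averages 8.04% in WT and 1.99% in *Txnip*-/- (KO) at RT, and 1.45% and 0.132% at TN; the *Scd1* axis starts at 99%.

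The enzymes that work beside these genes were read from fixed lists. Of the elongation cycle partners, 2 of 6 tested were called between genotypes at TN, where 8.66% of all tested genes were, and none of 5 at RT, where 1.49% were. *Hsd17b12*, the ketoacyl-CoA reductase, was lower in TN *Txnip*-/- (−0.38, adjusted p = 0.0420) and *Hacd4*, a dehydratase at 1.29 TPM in TN WT, was higher (0.56, adjusted p = 0.0186). From RT to TN, *Hsd17b12*, *Hacd1* and *Hacd2* fell and *Hacd4* rose in both genotypes, *Hsd17b12* by 0.63 in WT and 0.89 in *Txnip*-/-, which is 4 of 6 called in each, against 37.8% and 39.2% of all tested genes. *Hacd4* lay below 1 TPM in every RT library and met the minimum mean only through TN, where it is high, so its rise adds no weight to this count. Of the electron donors of the desaturases none of 5 tested was called between genotypes. *Cyb5a*, a cytochrome b5, rose from RT to TN in WT (0.37, adjusted p = 0.000311), as did *Cyb5r1* (0.45, adjusted p = 0.00349), and *Cyb5b* fell in *Txnip*-/- (−0.34, adjusted p = 0.000909).

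Genes that supply malonyl-CoA, palmitic acid and reducing power were not called between genotypes at either temperature, 0 of 8. *Acaca*, the acetyl-CoA carboxylase that makes malonyl-CoA, differed by 0.71 at RT and 0.70 at TN (adjusted p = 0.128 and 0.0615), and its mean effect of 0.71 passed (adjusted p = 0.00950). From RT to TN 4 of 8 fell in WT, *Acacb*, *Fasn*, *Me1* and *Slc25a1*, and 4 of 8 in *Txnip*-/-, *Acacb*, *Me1*, *Mcat* and *Slc25a1*. Of all tested genes 37.8% in WT and 39.2% in *Txnip*-/- were called in either direction, and 6.39% and 8.27% were called lower, a split that depends on the centring described above. The largest of these was *Fasn*, fatty acid synthase, with −0.93 in WT (adjusted p = 0.00751).

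Among 15 regulators of lipid synthesis, none was called between genotypes at RT and 3 were higher in *Txnip*-/- at TN, against 6.49% of all tested genes called higher there. These were *Mlxipl*, which encodes the carbohydrate response factor ChREBP (0.71, adjusted p = 0.0228), *Thrsp* (0.61, adjusted p = 0.0123) and *Mid1ip1* (0.68, adjusted p = 0.0378), a pair of related lipogenic cofactors. *Srebf1*, the sterol regulatory factor of fatty acid synthesis, rose from RT to TN in WT (0.77, adjusted p = 0.0278) and had a difference of 0.46 in *Txnip*-/- (adjusted p = 0.158), with no call in the interaction (adjusted p = 0.755). The regulator with the largest difference between temperatures was *Mid1ip1*, at 29.8, 23.4 and 20.2 TPM in RT WT and 56.2, 90.3 and 71.3 TPM in TN WT. In *Txnip*-/- it was at 47.7, 31.8 and 39.4 TPM at RT and at 126, 102 and 118 TPM at TN. The libraries of the temperatures did not overlap in either genotype, and *Mid1ip1* rose by 1.52 in WT (adjusted p = 0.000162) and 1.53 in *Txnip*-/- (adjusted p = 7.39e-05). *Pparg*, the master factor of adipocyte formation, rose in WT (0.56, adjusted p = 0.0152), *Srebf2* rose in both genotypes (0.42 in WT and 0.34 in *Txnip*-/-) and *Mlx*, the partner of ChREBP, fell in both (−0.42 and −0.38). In all, 4 of 15 rose and 3 fell in WT, and 2 rose and 2 fell in *Txnip*-/-, where 37.8% and 39.2% of all tested genes were called. *Nr1h3*, the liver X receptor alpha gene, fell from RT to TN in WT (−0.50, adjusted p = 0.000508) and in *Txnip*-/- (−0.56, adjusted p = 0.000142).

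Acyl-CoA synthetases, which activate fatty acids before elongation, had 1 of 7 tested called between genotypes at TN, where 8.66% of all tested genes were, and none at RT, where 1.49% were. The gene called was *Acsl1*, lower in *Txnip*-/- (−0.62, adjusted p = 0.0327). From RT to TN, *Acsl1*, *Acsl5*, *Slc27a2* and *Slc27a4* fell in both genotypes, 4 of 7, against 6.39% of all tested genes called lower in WT and 8.27% in *Txnip*-/-. Of the users of very long chains 1 of 10 tested was called between genotypes at each temperature, against 1.49% of all tested genes at RT and near the 8.66% at TN. This was the peroxisomal transporter *Abcd2*, lower in *Txnip*-/- at RT (−0.67, adjusted p = 0.0284) and at TN (−0.37, adjusted p = 0.0423). *Abcd3*, a peroxisomal transporter of the same family, fell from RT to TN in both genotypes, and *Cers4*, a ceramide synthase, and *Degs2*, a sphingolipid desaturase, rose in both. *Degs1*, its relative, rose in *Txnip*-/- (0.54, adjusted p = 0.000328).

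The genes whose levels across the 12 libraries lay closest to those of *Elovl3* and *Elovl6* were ranked by the root mean square difference of log2(TPM + 1) after each gene was centred on its mean, among genes with a mean of at least 10 TPM. For *Elovl3* the 5 closest of 6599 genes were *Ffar4*, a long-chain fatty acid receptor (0.53), *Gk*, glycerol kinase (0.59), *St3gal5* (0.64), *Ucp1*, the uncoupling protein of brown fat (0.76), and *Ankrd9* (0.79), where the median gene differed by 1.72. *Ffar4* averaged 81.6 TPM in WT and 28.6 TPM in *Txnip*-/- at RT, and 9.52 and 5.43 TPM at TN, the same order of groups as *Elovl3*. *Ucp1* averaged 3982, 3033, 814 and 249 TPM in the same groups, again in that order.

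For *Elovl6* the closest gene was *Fasn* (0.18), followed by *Mir1901* (0.20), *H2-Q10* (0.25), *Slc25a1*, the mitochondrial citrate carrier (0.28), and *Acaca* (0.29), where the median gene differed by 0.69. *Fasn* averaged 3453 TPM in WT and 4101 TPM in *Txnip*-/- at RT, and 1832 and 2866 TPM at TN. In both genes replicate 3 was the highest of the RT WT libraries and replicate 2 the highest of the TN WT libraries. The *Mir1901* row lies within exons of *Gm6277* and *Cables1*, and *H2-Q10* belongs to a family of similar copies, so the reads of both are uncertain. The likeness is a description over 12 libraries that share their groups.

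**Figure D5:**
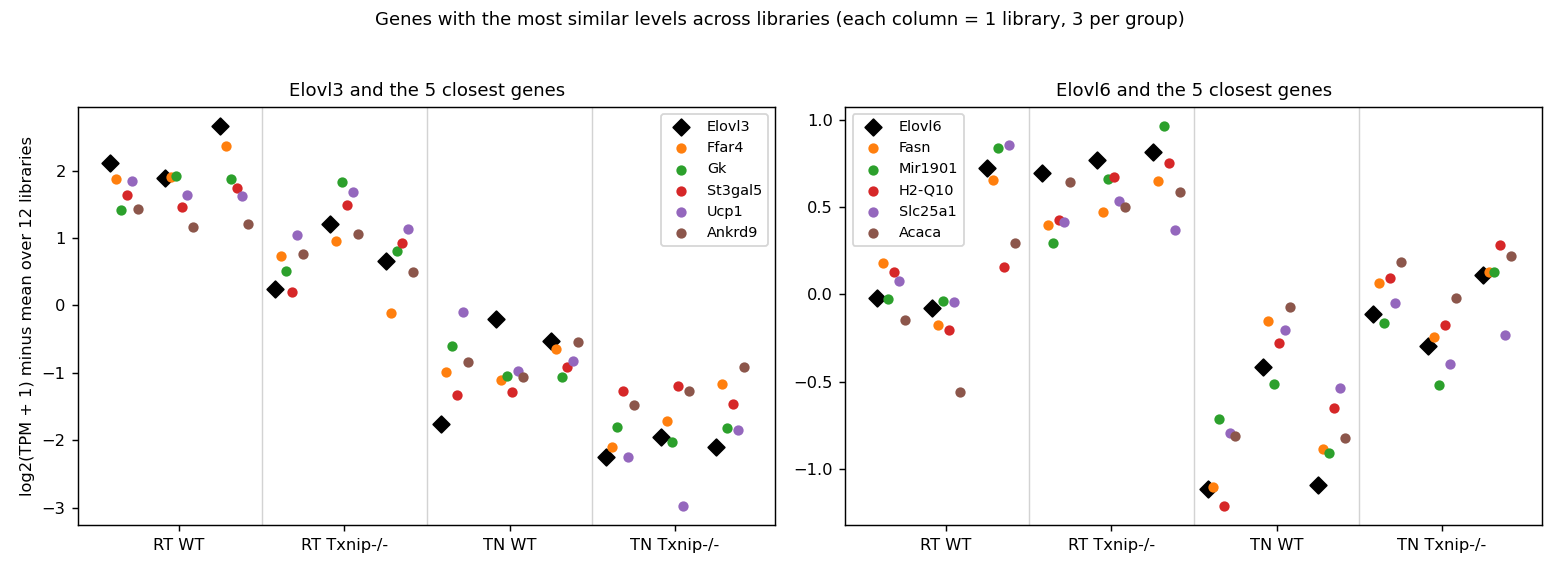
Log2(TPM + 1) minus the gene's mean over 12 libraries (y axis) for *Elovl3* and *Elovl6* (black diamonds) and the 5 genes closest to each, 1 column per library and 3 libraries per group. The group means of *Elovl3* and its neighbours step down from RT WT to TN *Txnip*-/-, while libraries of the genotypes overlap for *Gk*, *St3gal5*, *Ucp1* and *Ankrd9*. *Elovl6* and *Fasn*, 0.18 apart on average, are highest within RT WT in replicate 3.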

How the data were processed

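The authors prepared poly-A RNA libraries, read them from a single end, mapped them with STAR 2.7.5a on mm10 and counted on exons with HOMER 4.11.1 (versions per the submitters' processing notes), keeping 1 transcript per gene. Whether strand was used in counting is not given in the sources used here. They deposited TPM of 12 libraries (TPM, a level per transcript length and library size; the rows given here add up to 55.4% to 57.6% of the full scale) and log2-scale values of the 6 libraries of each temperature. The deposited fold changes and p-values of the authors' own comparison were not used. Total reads per library, from the table headers, lay between 29.9 M and 47.4 M. TPM keep no counts, so counting error is unknown and the spread of 3 libraries sets the precision.

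Genes with a mean of at least 1 TPM in the libraries compared were tested on log2(TPM + 1) in R 4.3.3 with limma 3.58.1 (empirical Bayes with a trend, Benjamini-Hochberg adjustment). Genotypes were compared on the 6 libraries of each temperature, and temperatures and the interaction on all 12. Calls needed a fold below 0.8 or above its inverse and an adjusted p under 0.05, the interaction the latter alone. Shares of TPM were tested by exact permutation. The code was tested on simulated data.

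The genes, lists and tests were chosen with earlier results of these data known. All 10 genes are described, with called genes of each list (at most 4 by size of change in a comparison, 1 of which is not reported here) and the 5 genes closest to *Elovl3* and *Elovl6*. Alternatives were log2(TPM + 0.1), no filter, upper-quartile normalization, median centring, a replicate block, all 12 libraries in 1 fit, the authors' log2 values, and each library left out. Same-numbered libraries did not deviate together in every pair (r between −0.0125 and 0.3 at RT and between −0.0289 and 0.0393 at TN), so the numbers were not taken as pairs. Plots used matplotlib 3.10.9 and Python 3.11.15.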

Additional observations from a re-analysis of the deposited data

How the results depend on the processing

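Of 602 values of single genes under an alternative, 546 kept their direction and their side of the threshold, 23 lost a call, 9 gained one and 24 changed sign, the last all in differences that had not passed. The fall of *Elovl3*, *Elovl5* and *Elovl6* and the rise of the 3 *Fads* genes from RT to TN kept their calls under every alternative run. The genotype calls were narrower. *Elovl3* at RT was also lost with log2(TPM + 0.1) (adjusted p = 0.0538), with no filter on low values (0.104) and with median centring (0.0544), *Elovl5* at RT with no filter (0.0685), and *Elovl6* at TN with no filter (0.1004) and upper-quartile normalization (0.0511). *Elovl3* at TN passed in 1 fit of all 12 libraries (0.0402) and with the authors' log2 values (0.0397), where its difference was −0.56, against −1.28 with log2(TPM + 1) and −2.35 with log2(TPM + 0.1) (adjusted p = 0.0509), and *Elovl5* at TN in the fit of 12 (0.0299). The authors' log2 values gave smaller differences at RT, −0.97 against −1.52 for *Elovl3* (0.0430), 0.33 against 0.53 for *Elovl5* (0.0407), 0.34 against 0.55 for *Elovl6*, and 0.12 for *Fads1*, 0.30 for *Fads3*, 0.21 for *Scd1* and 0.10 for *Scd2*, and 0.22 for *Elovl1* at TN. From RT to TN, *Elovl3* in *Txnip*-/- fell by 4.31 with log2(TPM + 0.1) against 2.80, and the difference of *Elovl1* in WT was 0.10 with median centring against 0.29. With no filter more genes are tested, and in the fit of 12 more libraries set the spread; the cause of the other changes was not tested. With the replicate number as a block, 100 genes passed at RT and the interaction gave 4, *Elovl3* at RT and *Elovl6* at TN lost their calls (adjusted p = 0.0679 and 0.0696) and *Elovl3* at TN gained one (0.0375); no other member's call changed under the block.

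The number of genes called by genotype at RT was 178, against 44 with no filter, 272 in 1 fit of 12 libraries and between 2 and 159 with 1 library left out. At TN it was 1116, against 621 with no filter and between 456 and 1005 with 1 library left out, and the interaction gave between 1 and 6 genes. Differences that turned sign were *Elovl1* at RT with median centring (−0.013) and with the authors' log2 values (−0.015), *Scd2* from RT to TN in *Txnip*-/- with median centring (−0.0019) and the interaction of *Elovl3* with log2(TPM + 0.1) (−0.73). With 1 library left out, *Elovl1* at RT ran from −0.069 to 0.11, *Scd2* at RT from −0.15 to 0.65, *Fads2* at TN from −0.13 to 0.13 and *Scd2* from RT to TN in *Txnip*-/- from −0.078 to 0.60. The interaction then ran from −0.22 to 0.56 for *Elovl3*, −0.034 to 0.45 for *Elovl6*, −0.10 to 0.17 for *Fads1*, −0.077 to 0.18 for *Fads2*, −0.38 to 0.40 for *Fads3* and −0.29 to 0.39 for *Scd1*. Without TN WT replicate 2 the mean of *Elovl3* at TN was under 1 TPM and it was not tested. The share of *Scd1* differed between genotypes by 0.13 to 0.20 percentage points and that of *Fads3* between temperatures by 10.03 to 16.4 points.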
